A study of Mus musculus with 8 samples.

Results

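The comparison described here is the response of lymph node cells from ICAM-1/2 DKO chimeras to an antibody against CD40. It sets 2 libraries labelled activated against 2 labelled resting, out of 8 libraries in the series, and covers all 10412 genes of the count table, of which 8616 were tested. Popliteal lymph nodes were taken from C57BL/6 mice aged 16 weeks, 8 weeks after a bone marrow transplant. Cells were gated by CD45, CD11c and MHC-II and are labelled classical dendritic cells. Activated mice had received 10 µg of the anti-CD40 antibody into the footpad, and resting mice no treatment. No group of the series was injected without this antibody, so its effect and that of the injection cannot be told apart. The chimeras are labelled ICAM-1/2 DKO/WT (called DKO here) or WT/WT (WT), where DKO stands for the double knockout of the adhesion molecules ICAM-1 and ICAM-2. The 4 WT libraries, 2 resting and 2 activated, are used as a second response beside the DKO one. All mice, resting and activated, were such chimeras, and the labels do not say which cells of the host remained in the chimeras, how many mice gave a library, or how long after the injection the nodes were taken.

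CD40 belongs to the TNF receptor family and is carried by dendritic cells, B cells and macrophages. Its ligand on helper T cells, or an agonist antibody in its place, recruits TRAF adaptor proteins and switches on the NF-kB factors, among them the alternative pathway that processes the precursor encoded by Nfkb2. In lymph node antigen-presenting cells this signal is known to raise costimulatory molecules, chemokines and survival genes, and in B cells it promotes growth and division. ICAM-1 and ICAM-2 are ligands of the T cell integrin LFA-1.

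Levels are given as CPM, counts scaled to a common library total after correction by the trimmed mean of M values (TMM). They rest on 401984 and 760053 UMIs (unique molecular identifiers, 1 for each captured molecule) in the resting libraries and on 803034 and 471235 in the activated libraries. The floor used here is 3 UMIs in a library, which is 7.11 and 3.71 CPM in the resting and 3.85 and 7.16 CPM in the activated libraries. Changes are log2 fold changes of activated over resting with their standard error (SE), from edgeR's quasi-likelihood test over all 8 libraries, and a gene is called when its Benjamini-Hochberg adjusted p is under 0.05. The labelled cell type was checked against marker lists before any result. Flt3, Itgax and Zbtb46, genes used to define classical dendritic cells, were near the floor in the 4 DKO libraries. Flt3, the receptor for the growth factor of dendritic cells, had 8 and 4 UMIs at rest and 9 and 12 after activation. Itgax, which encodes CD11c, had 11 and 13 and then 15 and 18, and the transcription factor gene Zbtb46 had 0 and 1 and then 8 and 4. The B cell gene Cd79b, a signalling chain of the B cell receptor, was far above these, with 1649 and 3548 UMIs at rest and 1987 and 1012 after activation. The summed B cell markers stood at 17273 and 19198 CPM at rest. Not every listed marker went this way. The B cell factor gene Pax5 had 1 and 7 UMIs at rest and 5 and 0 after activation. Of the cDC1 list, Irf8 had 279 and 514 UMIs at rest and 619 and 374 after activation. Wdfy4 of the same list had 104 and 158 and then 197 and 97. On Flt3, Itgax, Zbtb46, Cd79b and the B cell sum, the data go against a population made mainly of classical dendritic cells. The libraries are therefore called by their labels and the cells are called sorted cells. In such bulk samples fewer cells of a type and less RNA per cell cannot be told apart, and this holds for every change below.

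Icam1, the first of the deleted genes (chr9:21015985-21028817 in mm10), stayed low in the 4 DKO libraries. It had 4 and 11 UMIs at rest and 30 and 15 after activation, or 9.49 and 13.6 CPM and 38.5 and 35.8 CPM. WT libraries stood at 168 and 123 CPM at rest and 407 and 432 CPM after activation, and no DKO library overlapped with them. Within DKO, Icam1 rose by 1.62 ± 0.42 (log2, SE; adjusted p = 0.00825), a call that ended without DKO resting replicate 1 (adjusted p = 0.055) and without DKO activated replicate 1 (0.0648), as well as by limma-voom (0.103), with only the 4 DKO libraries (0.0642) and without both shallower DKO libraries (0.0911). Icam2 (chr11:106377656-106388075), the second, stood at 230.0 and 135 CPM at rest and 111 and 93.1 CPM after activation. In WT it stood at 199.5 and 219 CPM at rest and 66.5 and 94.1 CPM after activation, so that, unlike for Icam1, the DKO and WT values overlapped. Both activated DKO libraries lay below both resting ones, a change of −0.79 ± 0.27 (adjusted p = 0.0458) whose call ended under 11 of 16 alternative settings. The 3′ tags counted here need not lie in the deleted part of either gene, so they do not check the deletion. Cd40 itself stood at 308 and 319 CPM at rest and 554 and 523 CPM after activation in DKO. It rose by 0.78 ± 0.19 (adjusted p = 0.00502), against 1.49 ± 0.19 in WT.

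Between activated and resting DKO libraries 1322 of the 8616 tested genes were called, or 15.3%. Of these 777 were called higher, 9.02% of the tested genes, and 545 lower, 6.33%. These shares are the background for all list counts below. The lists were chosen with earlier results of these data known, so the list counts describe and do not test. A change of at least 2-fold was found in 525 of the genes called higher and 378 of those called lower, and at least 4-fold in 169 and 79. In 1321 of the 1322 the CPM values of the activated and resting libraries did not overlap. With 2 libraries against 2 a call nearly entails this, so it adds no support, here or for single called genes below. The balance of the directions depends on the scaling. With library totals in place of TMM, the split was 528 higher against 864 lower, and the median change over all tested genes moved from 0.01 to −0.17 on the log2 scale. The share of higher calls was 58.8% with TMM and 37.9% without. The count also depends on single libraries. It was 695 when DKO activated replicate 2 was left out, and 820 when DKO resting replicate 1 was left out. The authors' deposited table gives 892 genes with an adjusted p under 0.05 for the same contrast, and 891 of them were called here.

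**Figure D1:**
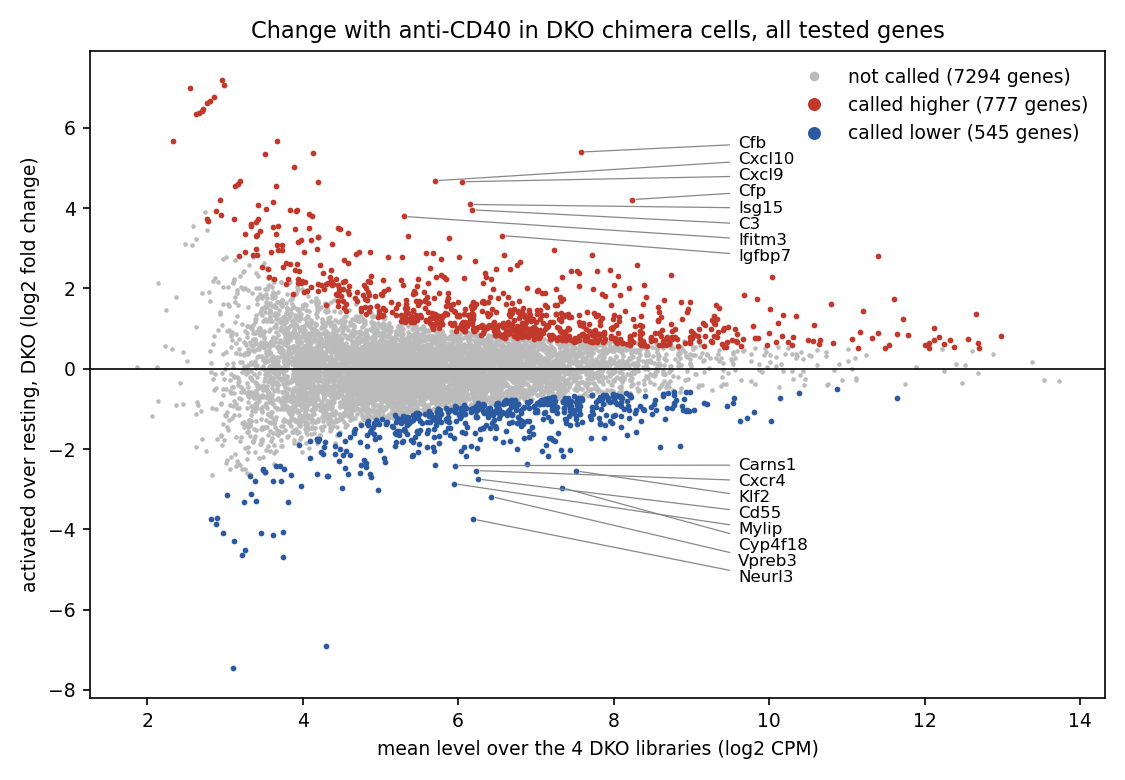
Each point is 1 of the 8616 tested genes, with the mean level over the 4 DKO libraries on the x axis (log2 CPM) and the log2 fold change of activated over resting on the y axis. Red points are the 777 genes called higher and blue points the 545 called lower. The 16 labelled genes are the largest called changes at a mean of at least 5 log2 CPM and without overlap between the groups, from Cfb at 5.39 to Neurl3 at −3.74.

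The 8 largest rises were taken from called genes with a mean of at least 5 log2 CPM and no overlap between the groups. They were in Cfb, Cxcl10, Cxcl9, Cfp, Isg15, C3, Ifitm3 and Igfbp7, and 3 of these are complement genes. Cfb encodes factor B, the protease that forms the convertase of the alternative complement pathway. It stood at 30.8 and 26.0 CPM at rest and 1187 and 1164 CPM after activation. The pairs lay far apart and close within each group, and the change was 5.39 ± 0.28 (adjusted p = 4.40e-15). Cfp encodes properdin, which stabilises that convertase, and went from 87.7 and 54.5 CPM to 1200.1 and 1327 CPM, a change of 4.21 ± 0.24 (adjusted p = 4.31e-14). C3, the protein that the convertase cleaves, went from 16.6 and 17.3 CPM to 275 and 258 CPM, a change of 3.96 ± 0.33 (adjusted p = 4.91e-10). For all 3 genes the lowest activated value was above the highest resting one, as the choice of these genes required. C1qa, C1qb and C1qc encode the chains of the recognition molecule of the classical pathway. They lie outside the rule for named genes and rose by 2.01 ± 0.25, 2.30 ± 0.25 and 1.95 ± 0.27, with adjusted p between 9.03e-08 and 5.52e-06. Cd55, whose product speeds the decay of convertases on the cell surface, went the other way. It stood at 147 and 269 CPM at rest and 41.1 and 16.7 CPM after activation, a change of −2.75 ± 0.34 (adjusted p = 7.25e-07). In all, 6 of 10 tested complement genes rose and 1 fell, and these counts were the same under all 16 alternatives. Monocyte and macrophage markers, which include the C1q genes, rose alongside, from a summed 3346 and 3369 CPM at rest to 13043 and 17025 CPM after activation, and their part in the complement result was not tested.

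The other 5 genes code for secreted and membrane proteins and for the ubiquitin-like protein ISG15, which is described with the interferon genes. Cxcl9 and Cxcl10 encode chemokines that attract T cells through the receptor CXCR3. Cxcl9 stood at 7.11 and 16.1 CPM at rest and 342 and 310.2 CPM after activation, a change of 4.65 ± 0.42 (adjusted p = 2.54e-09). Cxcl10 stood at 4.74 and 13.6 CPM and then 146 and 415 CPM, a change of 4.68 ± 0.50 (adjusted p = 5.67e-08). The activated libraries were alike for Cxcl9, while for Cxcl10 replicate 2 was well above replicate 1. Ifitm3, which encodes a membrane protein that restricts virus entry, went from 4.74 and 14.9 CPM to 70.7 and 258 CPM (3.79 ± 0.53, adjusted p = 4.42e-06), again higher in replicate 2. Igfbp7, which encodes a secreted binding protein, went from 28.5 and 28.5 CPM to 275 and 296 CPM (3.32 ± 0.30, adjusted p = 2.54e-09), with no such spread.

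The 8 largest falls, chosen in the same way, were in Cd55, given above, and in Neurl3, Vpreb3, Cyp4f18, Mylip, Klf2, Cxcr4 and Carns1. Neurl3, which encodes a ubiquitin ligase, stood at 263 and 236 CPM at rest and 18.0 and 19.1 CPM after activation, a change of −3.74 ± 0.31 (adjusted p = 4.91e-10). Vpreb3, a B-lineage gene whose product binds immunoglobulin chains, stood at 266 and 228 CPM and then 25.7 and 28.6 CPM (−3.18 ± 0.29, adjusted p = 2.54e-09). In both genes each group's pair was tight. Cyp4f18, a cytochrome P450 gene, went from 493 and 402 CPM to 61.7 and 50.1 CPM (−2.96 ± 0.25). Mylip, which encodes a ubiquitin ligase that degrades the LDL receptor, went from 185 and 136 CPM to 23.1 and 19.1 CPM (−2.86 ± 0.34). Klf2, a transcription factor that keeps lymphocytes quiescent and recirculating, went from 389 and 506 CPM to 91.2 and 57.3 CPM (−2.55 ± 0.26). Cxcr4, the receptor for CXCL12, went from 180.2 and 163 CPM to 20.6 and 43.0 CPM (−2.54 ± 0.33), and Carns1, which encodes carnosine synthase, from 161 and 130.0 CPM to 33.4 and 16.7 CPM (−2.41 ± 0.34). The adjusted p of these 5 genes lay between 1.04e-09 and 6.55e-06. In each of the 8 the activated pair lay below the resting pair, as the choice required.

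**Figure D2:**
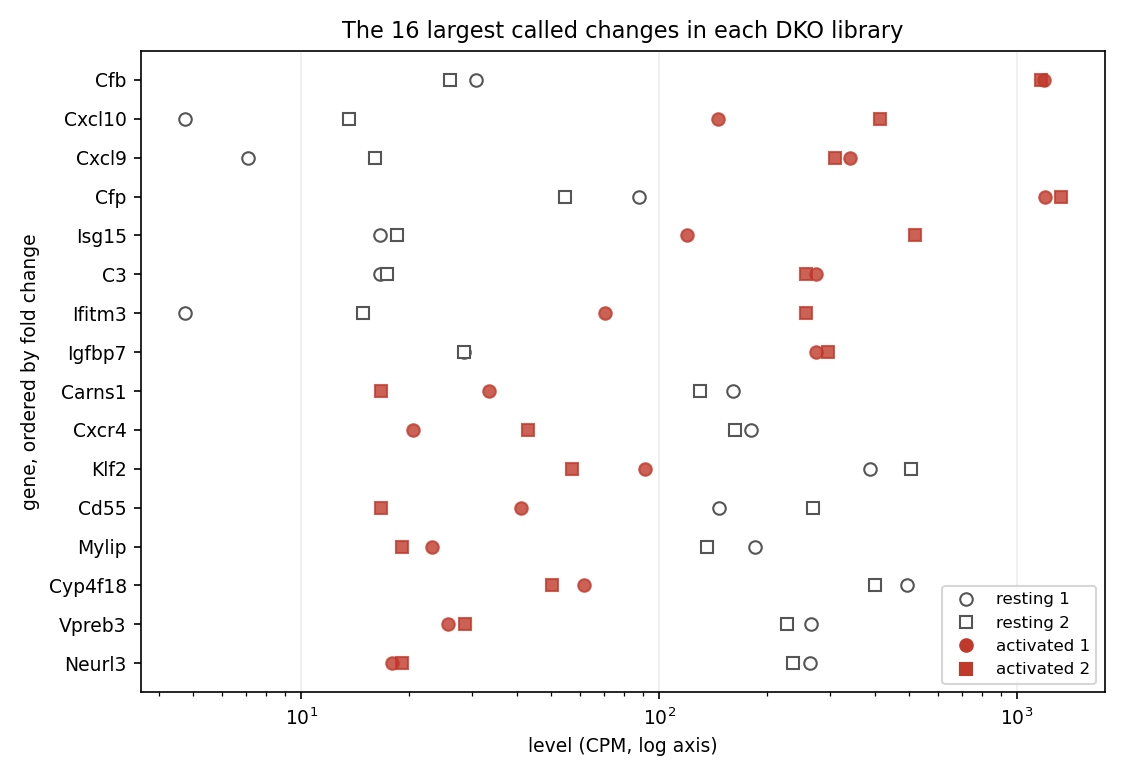
Levels of the 16 largest called changes in each of the 4 DKO libraries (CPM, log axis), with resting libraries as open and activated libraries as filled symbols, circles for replicate 1 and squares for replicate 2. The open and filled symbols do not overlap because the genes were chosen to have no overlap. Cxcl10, Isg15 and Ifitm3 are spread between the activated replicates while Cfb, C3 and Igfbp7 are not.

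A further 59 genes were called higher with at most 3 UMIs in each resting library, and 27 lower with at most 3 in each activated library, so that their fold is known only within wide counting limits. Ifit3, an antiviral interferon-induced gene, had 1 and 0 UMIs at rest and 15 and 38 after activation. Per unit of depth that is a ratio of 54.4 (exact 95% counting interval 9.35 to 2189.8), which covers counting error only, as do the other intervals here. The genes given with such ratios were picked by their calls in these same data. Their ratios may therefore be too large, and the intervals do not allow for that choice. Iigp1, an interferon-inducible GTPase gene, had 1 and 1 and then 74 and 20 UMIs, a ratio of 48.3 (exact 95% counting interval 13.0 to 404). Cd36, a scavenger receptor gene, had 1 and 3 and then 40 and 19, a ratio of 15.1 (exact 95% counting interval 5.61 to 57.4). In the other direction Cacna1i, the gene of a voltage-gated calcium channel subunit, was close to lost. It had 49 and 99 UMIs at rest and 1 and 0 after activation, a ratio of resting over activated of 144 (exact 95% counting interval 25.5 to 5730.4). Kctd14 had 22 and 34 and then 2 and 0 UMIs, a ratio of 27.3 (exact 95% counting interval 7.20 to 231), and the unnamed transcript 5830416P10Rik had 28 and 21 and then 3 and 0, a ratio of 15.9 (exact 95% counting interval 5.13 to 79.8).

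Interferon-stimulated genes are antiviral and signalling genes switched on by interferon, and the response element known from many of their promoters has the repeated core GAAANNGAAA. Of 52 tested members 32 rose and 0 fell, with a median change of 1.51 against 0.01 over all tested genes. Promoters of 4 interferon-response genes that rose are shown because they carry this core. They are RefSeq sequences of GRCm38.p6, the same build as mm10, 300 bases each, from 250 bases before to 50 after the start, read along the gene's strand, with the core on either strand in capitals.
Isg15 (chr4:156200769-156201068, minus strand): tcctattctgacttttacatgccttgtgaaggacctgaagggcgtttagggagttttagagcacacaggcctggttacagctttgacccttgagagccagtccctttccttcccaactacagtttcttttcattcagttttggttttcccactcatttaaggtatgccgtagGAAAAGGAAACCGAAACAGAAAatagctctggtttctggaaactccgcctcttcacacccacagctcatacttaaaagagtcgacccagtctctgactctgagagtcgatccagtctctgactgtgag
Ifit3 (chr19:34583279-34583578, plus strand): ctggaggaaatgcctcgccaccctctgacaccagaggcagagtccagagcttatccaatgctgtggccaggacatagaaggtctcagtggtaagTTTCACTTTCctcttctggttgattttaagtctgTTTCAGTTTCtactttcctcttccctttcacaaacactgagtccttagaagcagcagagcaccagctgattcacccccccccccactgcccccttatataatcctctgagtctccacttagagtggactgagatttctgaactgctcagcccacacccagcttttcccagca
Gbp2 (chr3:142620413-142620712, plus strand): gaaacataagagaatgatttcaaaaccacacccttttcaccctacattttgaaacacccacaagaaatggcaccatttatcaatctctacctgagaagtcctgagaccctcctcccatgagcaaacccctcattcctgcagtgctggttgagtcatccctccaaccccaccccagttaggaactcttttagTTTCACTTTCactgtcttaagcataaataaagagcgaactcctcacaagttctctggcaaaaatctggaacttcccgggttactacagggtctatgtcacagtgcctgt
Cxcl10 (chr5:92348840-92349139, minus strand): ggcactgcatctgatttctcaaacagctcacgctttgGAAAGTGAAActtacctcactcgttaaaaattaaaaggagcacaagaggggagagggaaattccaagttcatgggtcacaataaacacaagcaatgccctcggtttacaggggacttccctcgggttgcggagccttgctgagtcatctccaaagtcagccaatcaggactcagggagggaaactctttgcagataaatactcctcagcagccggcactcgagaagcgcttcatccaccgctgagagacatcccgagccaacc

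Isg15 holds 3 overlapping cores, which begin 78, 72 and 66 bases before the start, Ifit3 holds 2, and Gbp2 and Cxcl10 hold 1 each. Over all 32851 listed promoters 3.44% hold the core. Among tested genes with a listed promoter it was found in 55 of 597 called higher (9.21%), 13 of 412 called lower (3.16%) and 210 of 5687 not called (3.69%). Of the interferon-stimulated genes 18 of 41 with a promoter hold it, and of the interferon-inducible GTPases 8 of 9. These are matches of letters in a window of 300 bases and say nothing of binding.

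Isg15 encodes a ubiquitin-like protein that is attached to other proteins. It stood at 16.6 and 18.6 CPM at rest and 119 and 520.2 CPM after activation, a change of 4.09 ± 0.48 (adjusted p = 2.95e-07). Both activated libraries were above both resting ones, as its choice among the largest rises required. Activated replicate 2 was far above activated replicate 1. Irf7, the factor that amplifies interferon production, went from 71.1 and 87.9 CPM to 280.1 and 616 CPM (2.44 ± 0.29, adjusted p = 2.95e-07). Lgals3bp, which encodes a secreted glycoprotein, went from 87.7 and 65.6 CPM to 261 and 568 CPM (2.44 ± 0.30), and Bst2, which encodes the protein tetherin that holds budding viruses, from 187 and 149.8 CPM to 445 and 995 CPM (2.09 ± 0.28). The same order of the activated libraries held almost throughout the list. In replicate 2, 50 of the 52 genes were above replicate 1, with a median difference of 1.02 (log2), against 4382 of 8616 tested genes and a median of 0.02. The summed level of the list was 3533 and 3812 CPM at rest and 6317 and 11084 CPM after activation. In WT it was 3961 and 3761 CPM and 8124 and 9783 CPM, and 32 members rose. The number that rose in DKO was 16 without DKO activated replicate 2 and 33 without DKO activated replicate 1, and 21 by limma-voom. The 2 activated libraries also differ in depth, 803034 against 471235 UMIs, and the part of depth in this spread was not tested.

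The interferon-inducible GTPases, the GBP and IRG proteins that attack vacuoles holding microbes, were not ordered in that way. Of 13 tested members 11 rose and 0 fell, with a median of 1.52, and 7 of 13 were higher in activated replicate 2 than in replicate 1. The count was 7 without DKO resting replicate 1. Gbp2 stood at 21.3 and 66.8 CPM at rest and 227 and 401 CPM after activation (2.66 ± 0.34, adjusted p = 1.47e-06). Ifi47, which is also in the interferon-stimulated list, stood at 102 and 184 CPM and then 517 and 537 CPM (1.83 ± 0.24, adjusted p = 2.08e-06). The activated values were close to each other for Ifi47, while both groups of Gbp2 were spread.

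**Figure D3:**
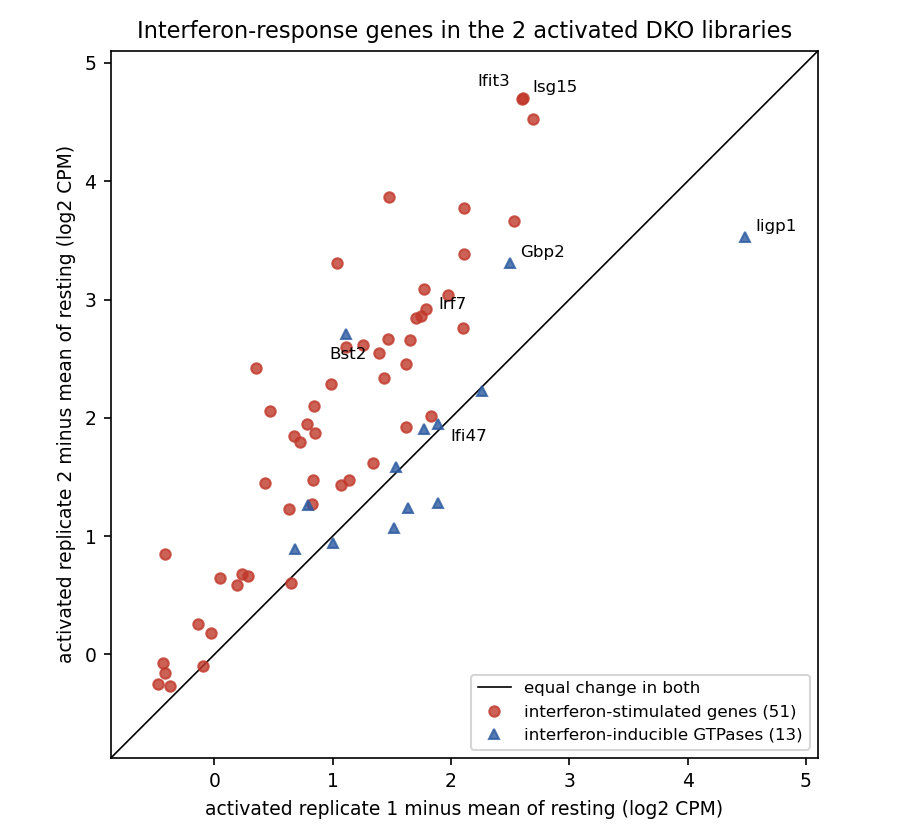
Each point is a gene, with the log2 CPM of activated replicate 1 minus the mean of the resting DKO libraries on the x axis and the same for activated replicate 2 on the y axis. Red circles are 51 interferon-stimulated genes, most of them above the line of equal change, and blue triangles are 13 interferon-inducible GTPases, which lie on both sides of it (Ifi47 is in both lists and drawn as a triangle).

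Among the genes of the CD40 and NF-kB pathway 7 of 28 tested members rose and 2 fell, shares of 25% and 7.14% against 9.02% and 6.33% of all tested genes. Their median of −0.01 ran from −0.19 to 0.19 over the alternatives. Those that rose were Cd40, Nfkb2, Nfkbia, Nfkbie, Tank, Tnfaip3 and Traf1. Traf1, an adaptor that binds receptors of the TNF family, stood at 157 and 100.3 CPM at rest and 468 and 406 CPM after activation (1.81 ± 0.24, adjusted p = 1.61e-06). Nfkb2, which encodes the p100 precursor of the alternative pathway, stood at 453 and 406 CPM and then 932 and 914 CPM (1.11 ± 0.18, adjusted p = 6.59e-05). In both genes the activated pair was clear of the resting pair. Tank, an adaptor that binds TRAF proteins, stood at 42.7 and 104 CPM and then 211 and 172 CPM (1.30 ± 0.28, adjusted p = 0.00138). Traf5, which encodes another adaptor, fell from 138 and 120.1 CPM to 33.4 and 64.4 CPM (−1.47 ± 0.32, adjusted p = 0.00132), and Ikbkb, which encodes a kinase of the classical pathway, from 247 and 204 CPM to 111 and 134 CPM (−0.89 ± 0.24, adjusted p = 0.0102). Neither call held without DKO activated replicate 1 (adjusted p = 0.0763 and 0.0993), and that of Ikbkb also ended without DKO resting replicate 1 (0.0561). In WT 8 members rose and 0 fell.

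The kB motif GGGANTTTCC was searched in the same promoters on both strands, and 0.411% of all 32851 hold it. Of 6 pathway genes called higher that have a listed promoter, 2 hold it, Nfkb2 and Nfkbia, which encodes the inhibitor that releases NF-kB when it is degraded. Among all tested genes it was found in 10 of 597 called higher (1.68%), 2 of 412 called lower (0.485%) and 24 of 5687 not called (0.422%). The Nfkb2 promoter is printed because the gene both belongs to the pathway and rose, with the motif in capitals. It lies at 10 to 19 bases after the start of this transcript.
Nfkb2 (chr19:46305445-46305744, plus strand): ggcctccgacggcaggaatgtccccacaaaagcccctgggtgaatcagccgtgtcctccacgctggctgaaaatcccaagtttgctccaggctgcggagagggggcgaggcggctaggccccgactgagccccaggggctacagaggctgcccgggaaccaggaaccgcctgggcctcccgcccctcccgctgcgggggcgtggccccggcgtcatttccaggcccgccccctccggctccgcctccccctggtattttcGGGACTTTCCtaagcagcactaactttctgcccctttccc

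A list of chemokines and their receptors, which also holds sphingosine-1-phosphate receptors, changed in both directions. Of its 29 tested members 14 rose and 4 fell, with a median of 1.96. Ccl22, a chemokine of activated dendritic cells and B cells that attracts T cells through CCR4, stood at 147 and 113 CPM at rest and 629.6 and 907 CPM after activation (2.58 ± 0.23, adjusted p = 2.54e-09). Ccl8, a chemokine for monocytes and T cells, stood at 75.9 and 85.4 CPM and then 387 and 463 CPM (2.37 ± 0.25, adjusted p = 4.45e-08). In both genes the activated and resting pairs did not overlap. The members that fell were Cxcr4, given above, the sphingosine-1-phosphate receptors S1pr1 and S1pr4, and Ccr7. S1pr1, needed for exit from the lymph node, stood at 152 and 193 CPM at rest and 45.0 and 54.9 CPM after activation (−1.83 ± 0.28, adjusted p = 1.78e-05). S1pr4 stood at 356 and 296 CPM and then 91.2 and 62.0 CPM (−2.03 ± 0.25, adjusted p = 6.55e-07). Ccr7, the receptor that brings cells into the T cell zone, stood at 279.8 and 248 CPM and then 114 and 148 CPM (−1.02 ± 0.24, adjusted p = 0.00287), a call that ended without DKO activated replicate 1 (0.0619). The number of members that rose was 6 when DKO resting replicate 2 was left out, 8 without DKO activated replicate 1 and 9 without DKO resting replicate 1. DESeq2 called 8 of them higher.

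Cytokine and cytokine receptor genes moved in both directions, with 6 of 32 higher and 5 lower. These are shares of 18.75% and 15.6%, against 9.02% and 6.33% of all tested genes. Il1rn, which encodes the antagonist of the IL-1 receptor, had 1 and 1 UMIs at rest and 21 and 16 after activation, a ratio of 19.0 (exact 95% counting interval 4.90 to 163). Csf1r, the receptor for the macrophage growth factor, stood at 73.5 and 56.9 CPM and then 202 and 305 CPM (1.97 ± 0.29, adjusted p = 1.45e-05). Il10ra, a chain of the IL-10 receptor, fell from 173 and 181 CPM to 86.1 and 45.3 CPM (−1.36 ± 0.28, adjusted p = 0.000732). Without DKO resting replicate 2 the number that rose was 3, and the number that fell was 1 without DKO activated replicate 2, 2 without DKO resting replicate 1 and 3 without DKO activated replicate 1 or either WT activated replicate.

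Maturation genes of dendritic cells rose in part, with 11 of 30 higher and 1, Ccr7, lower. These are shares of 36.7% and 3.33%, against 9.02% and 6.33% of all tested genes. Marcks and Marcksl1 encode proteins that link the membrane to the actin cytoskeleton. Marcks stood at 80.6 and 100.3 CPM at rest and 443 and 319.7 CPM after activation (2.06 ± 0.24, adjusted p = 2.95e-07), and Marcksl1 at 87.7 and 121 CPM and then 418 and 432 CPM (1.99 ± 0.23, adjusted p = 2.95e-07). The groups did not overlap in either gene. In a list of ligands that costimulate or inhibit T cells, which also holds the receptor gene Lilrb4a, 4 of 14 members rose and 0 fell. The share that rose was 28.6%, against 9.02% of all tested genes. Lilrb4a, which encodes an inhibitory receptor of myeloid cells, stood at 11.9 and 29.7 CPM and then 203 and 93.1 CPM (2.73 ± 0.42, adjusted p = 2.31e-05). Lgals9, which encodes galectin-9, stood at 187 and 213 CPM and then 316 and 659 CPM (1.25 ± 0.26, adjusted p = 0.00118), and its call ended without DKO activated replicate 2 (0.141). Cd86, the costimulatory ligand of CD28 and outside the rule for named genes, stood at 35.6 and 39.6 CPM and then 28.3 and 66.8 CPM, with overlapping groups (adjusted p = 0.766). Without DKO activated replicate 2 the number that rose was 6 for maturation genes and 2 for the ligands.

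In antigen presentation most calls were in proteasome genes. The immunoproteasome replaces catalytic subunits of the standard proteasome and makes peptides for MHC class I. In a list of MHC class I and immunoproteasome genes 10 of 20 members rose and 0 fell. Psmb9, a catalytic subunit, stood at 296 and 478 CPM at rest and 1086 and 1167 CPM after activation (1.52 ± 0.21, adjusted p = 5.35e-06). Psme2, a subunit of the activator that opens the proteasome, stood at 71.1 and 99.0 CPM and then 242 and 291 CPM (1.60 ± 0.24, adjusted p = 2.16e-05). Psmb10, a further catalytic subunit, rose by 1.02 ± 0.19 (adjusted p = 0.000227), and in all 3 genes both activated libraries were above both resting ones. Of the 35 subunits and assembly factors of the standard proteasome 18 rose and 0 fell, with a median of 0.76. Pomp, a chaperone of proteasome assembly, stood at 237 and 229 CPM and then 586 and 661 CPM (1.42 ± 0.20, adjusted p = 4.35e-06), and the subunit Psma7 at 401 and 359 CPM and then 769.7 and 914 CPM (1.15 ± 0.19, adjusted p = 6.17e-05). The number that rose among standard subunits was 8 without DKO activated replicate 2 and 10 without DKO resting replicate 1, where the immunoproteasome list gave 5.

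Of 21 tested genes of MHC class II presentation 7 rose and 2 fell, shares of 33.3% and 9.52% against 9.02% and 6.33% of all tested genes. The median of −0.25 became 0.07 when DKO resting replicate 2 was left out and 0.10 when DKO activated replicate 1 was. Ifi30, a lysosomal thiol reductase that unfolds antigens, stood at 733 and 918 CPM at rest and 2009.6 and 2131 CPM after activation (1.32 ± 0.18, adjusted p = 2.43e-06). The cathepsin genes Ctsb and Ctsz rose by 1.71 ± 0.23 and 1.32 ± 0.19 (adjusted p = 3.48e-06 and 6.71e-06). Another cathepsin gene, Ctsh, fell from 564 and 602 CPM to 290.4 and 396 CPM (−0.78 ± 0.20, adjusted p = 0.00808), and its call ended without DKO activated replicate 1 (0.117). H2-Ob, a chain of the DO molecule that restrains peptide loading in B cells, fell from 1053 and 1453 CPM to 539.7 and 470.1 CPM (−1.31 ± 0.19, adjusted p = 8.49e-06). The invariant chain gene Cd74, the most abundant gene of the general dendritic cell list, stood at 14001 and 16129.8 CPM at rest and 11711 and 12720.5 CPM after activation and was not called (adjusted p = 0.184). Cd74 was called lower when library totals replaced TMM (adjusted p = 0.00473), where 7 members of the list fell. Without DKO resting replicate 1 or DKO activated replicate 2, 4 members rose, and without DKO activated replicate 1 only 1 fell.

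Genes of protein synthesis and respiration rose by small amounts in large numbers. Oxidative phosphorylation genes, the subunits of the respiratory chain and ATP synthase, had 34 of 73 tested members higher and 0 lower, with a median of 0.62. Atp5j2, a subunit of ATP synthase, stood at 413 and 379 CPM at rest and 704 and 985 CPM after activation (1.09 ± 0.20, adjusted p = 0.000264), and Cox6b1, a subunit of cytochrome c oxidase, at 415 and 365 CPM and then 632 and 914 CPM (0.98 ± 0.20, adjusted p = 0.000732). Of 73 members 59 were higher in activated replicate 2 than in replicate 1, and without replicate 2 the number that rose was 9. It was 13 without DKO resting replicate 2, 20 without DKO resting replicate 1 and 21 with library totals. Among mitochondrial ribosomal proteins 19 of 73 rose and 0 fell, with Mrpl52 at 1.53 ± 0.21 and Mrpl14 at 1.68 ± 0.24. The count was 8 without DKO activated replicate 2 and 11 without DKO resting replicate 1.

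Cytosolic ribosomal protein genes had 19 of 70 members higher and 0 lower, with a median of 0.35. In WT 41 rose, with a median of 0.65, and single members were compared between DKO and WT only by the interaction test given last. Rpl41, a small protein of the large subunit, stood at 2312 and 2096 CPM at rest and 4847 and 5591 CPM after activation in DKO (1.24 ± 0.18, adjusted p = 6.39e-06). Ribosomal protein genes have many processed pseudogenes that share reads, so single members are uncertain. The number that rose was 6 without DKO activated replicate 2, 9 without DKO resting replicate 2, and 11 when DKO resting replicate 1 was left out. Of 36 ribosome biogenesis genes 10 rose, among them Dkc1 (1.49 ± 0.28), the enzyme that makes pseudouridine in ribosomal RNA, and Nhp2 (1.09 ± 0.22), its partner. That count was 5 without DKO resting replicate 2 and 6 without either DKO activated replicate. Of 35 translation factors and tRNA synthetases 6 rose, a share of 17.1% against 9.02% of all tested genes. They were led by Eif5a, a factor for elongation through difficult peptides, at 766 and 699 CPM at rest and 1669 and 2002 CPM after activation (1.33 ± 0.18, adjusted p = 2.47e-06). The count was 2 without DKO activated replicate 2 and 3 by DESeq2, with library totals or without DKO resting replicate 1.

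Chaperone, folding and metabolic genes gave smaller counts. Of 29 cytosolic and mitochondrial chaperones 11 rose and 0 fell, among them Hspe1 (1.31 ± 0.24), the mitochondrial co-chaperone, Cct3 (1.06 ± 0.20), a chaperonin subunit for actin and tubulin, and Hsp90ab1 (1.05 ± 0.19). The count was 5 without DKO activated replicate 2 and 7 by DESeq2 or without DKO resting replicate 1. Of 32 genes for folding in the endoplasmic reticulum 9 rose and 1 fell, shares of 28.1% and 3.13% against 9.02% and 6.33% of all tested genes. The chaperones Hspa5 and Hsp90b1 rose by 1.29 ± 0.23 and 1.23 ± 0.22. Atf4, a transcription factor of the stress response, was called lower at −0.58 ± 0.19 (adjusted p = 0.0349). The Atf4 call ended without either DKO resting replicate and without DKO activated replicate 2, at adjusted p from 0.0683 to 0.18. Without either WT activated replicate its adjusted p was 0.0584 and 0.0577. Of 16 glycolysis genes 5 rose and 1 fell, shares of 31.25% and 6.25% against 9.02% and 6.33% of all tested genes. The one that fell was the glucose transporter gene Slc2a3, which was not called without any 1 of the 4 DKO libraries. Ldha, which makes lactate, stood at 413 and 389.9 CPM at rest and 853 and 1024 CPM after activation (1.22 ± 0.19, adjusted p = 2.18e-05), and Aldoa, an aldolase, rose by 1.03 ± 0.19 (adjusted p = 0.000225). Hk3, the hexokinase of myeloid cells, had 0 and 1 UMIs at rest and 25 and 20 after activation, a ratio of 46.2 (exact 95% counting interval 7.88 to 1865). Of 28 lipid synthesis genes 6 rose and 1 fell, shares of 21.4% and 3.57%. Cyp51, a sterol demethylase, stood at 14.2 and 30.9 CPM at rest and 74.5 and 83.5 CPM after activation (1.68 ± 0.38, adjusted p = 0.00236). The number that rose in the lipid list was 2 without DKO resting replicate 2 or DKO activated replicate 1, and 3 without DKO resting replicate 1.

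Proliferation genes, those of DNA replication and mitosis, had 29 of 48 tested members higher and 1 lower, with a median of 1.34. Ccnd2, the cyclin that takes lymphocytes into the cycle, stood at 266 and 132 CPM at rest and 1027 and 899.6 CPM after activation (2.33 ± 0.23, adjusted p = 2.17e-08). Tuba1b and Tubb5 encode the tubulins of the spindle and the cytoskeleton. Tuba1b stood at 410.3 and 458 CPM and then 1241 and 1889.8 CPM (1.84 ± 0.20, adjusted p = 6.00e-08), and Tubb5 rose by 1.15 ± 0.20 (adjusted p = 0.00014). In these genes the activated pair was clear of the resting pair. Genes of the mitotic phases, outside the rule for named genes and chosen after their values were seen, were at low counts. Top2a, the topoisomerase of dividing cells, had 3 and 7 UMIs at rest and 44 and 27 after activation (2.87 ± 0.55, adjusted p = 0.000404), and Mki67 had 0 and 1 and then 6 and 13. Cenpa, the centromeric histone gene, was the member that fell, from 71.1 and 91.6 CPM to 30.8 and 21.5 CPM (−1.60 ± 0.36, adjusted p = 0.00191). In WT 15 members rose, with a median of 0.78, and single members were compared between DKO and WT only by the interaction test given last. Without DKO activated replicate 2 the DKO number was 16, and without DKO resting replicate 2 it was 17.

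**Figure D4:**
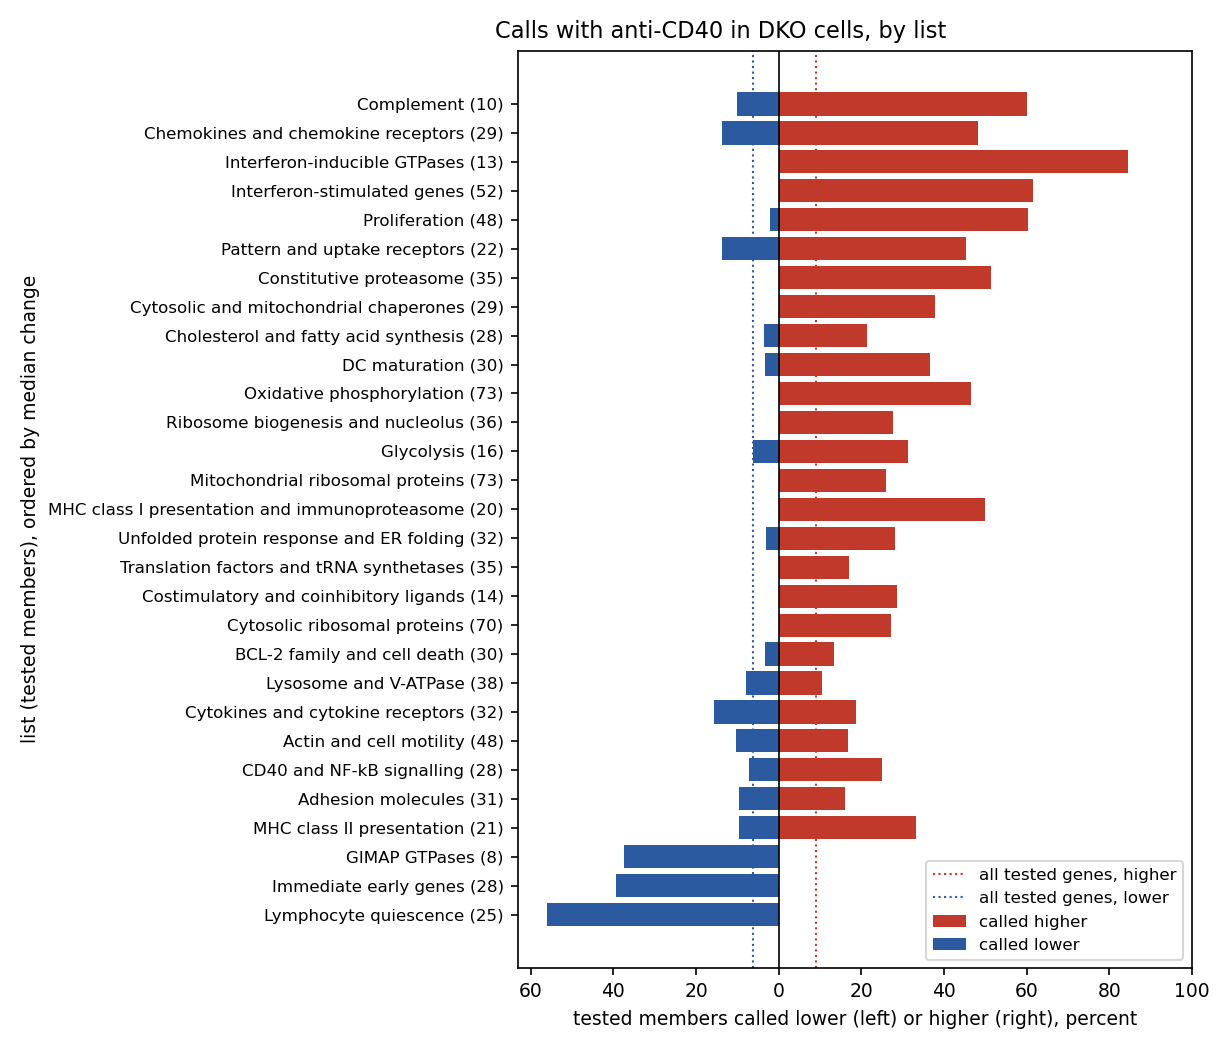
Percent of the tested members of each of 29 function lists called higher (red, to the right) or lower (blue, to the left) with activation in DKO cells, ordered by the list's median change, with the number of tested members in parentheses and dotted lines at 9.02% and 6.33% for all tested genes. Interferon-inducible GTPases, interferon-stimulated genes, proliferation and complement lie farthest to the right, and lymphocyte quiescence, immediate early genes and GIMAP GTPases have calls to the left alone. The lists were chosen with earlier results of these data known, so their shares are descriptive.

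Among genes that keep lymphocytes at rest all calls were falls. Of 25 quiescence genes 14 fell and 0 rose, with a median of −1.07, and the number that fell stayed between 12 and 15 under all 16 alternatives. Beside Klf2 and S1pr1, given above, Rasgrp2, an activator of the GTPase Rap1, stood at 282 and 240.1 CPM at rest and 43.7 and 59.7 CPM after activation (−2.37 ± 0.27, adjusted p = 2.62e-07). Txnip, an inhibitor of thioredoxin and of glucose uptake, stood at 828 and 701 CPM and then 206 and 184 CPM (−1.96 ± 0.20, adjusted p = 4.24e-08). Both groups were tight in both genes. Immediate early genes, which respond within minutes to signals and also to cell dissociation, had 11 of 28 members lower and 0 higher, with a median of −1.01. Zfp36, which encodes a protein that destabilises cytokine mRNA, stood at 292 and 256 CPM and then 86.1 and 71.6 CPM (−1.77 ± 0.24, adjusted p = 3.44e-06), and Tsc22d3, a glucocorticoid-induced gene, at 356 and 389 CPM and then 88.7 and 146 CPM (−1.72 ± 0.25, adjusted p = 1.18e-05). In WT 16 fell. Without DKO resting replicate 1 the DKO number was 7. Of 8 GIMAP GTPases, survival proteins of lymphocytes, 3 fell, a share of 37.5% against 6.33% of all tested genes. Gimap6 stood at 877 and 1108 CPM at rest and 547 and 554 CPM after activation (−0.86 ± 0.19, adjusted p = 0.00143). With library totals 5 fell, and without either DKO activated replicate 2 did.

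Of 31 adhesion genes 5 rose and 3 fell, Icam2 among the latter. The shares of 16.1% and 9.68% are not far from the 9.02% and 6.33% of all tested genes. Vcam1, the ligand of the integrin VLA-4, stood at 4.74 and 11.1 CPM at rest and 51.4 and 85.9 CPM after activation (2.91 ± 0.52, adjusted p = 0.000207), and Cd44, a receptor for hyaluronan, at 68.8 and 66.8 CPM and then 161 and 150.3 CPM (1.20 ± 0.28, adjusted p = 0.00317). Both genes were higher in both activated libraries. Cd2, which binds CD48 on other cells, fell from 564 and 493 CPM to 221 and 262 CPM (−1.13 ± 0.21, adjusted p = 0.000264), and Itgb7, a chain of gut-homing integrins, from 572 and 425 CPM to 245 and 265 CPM (−0.96 ± 0.21, adjusted p = 0.00194). The number that rose was 8 without DKO resting replicate 2 and 3 without DKO resting replicate 1 or DKO activated replicate 1, and with library totals 7 fell. Of 48 actin and motility genes 8 rose and 5 fell, shares of 16.7% and 10.4%, with a median of 0.12 that turned to −0.07 with library totals. Actb, cytoplasmic actin, went from 3903 and 4206 CPM to 9262 and 11429.6 CPM (1.35 ± 0.17, adjusted p = 6.37e-07), and Rac2, a GTPase of blood cells, from 1954 and 1990.4 CPM to 3821 and 3527 CPM (0.90 ± 0.16, adjusted p = 0.000178). The number that rose was 4 without DKO activated replicate 2 and 5 without DKO resting replicate 2. The number that fell was 3 without DKO resting replicate 1 or DKO activated replicate 1, and 8 with library totals.

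Receptors for microbes and debris, many of them genes of myeloid cells, gave 10 higher and 3 lower of 22 tested. Marco, a scavenger receptor of macrophages, stood at 75.9 and 84.2 CPM at rest and 349.5 and 814 CPM after activation (2.82 ± 0.30, adjusted p = 6.00e-08), and Tyrobp, a signalling adaptor of myeloid receptors, at 304 and 229 CPM and then 679.7 and 995 CPM (1.66 ± 0.22, adjusted p = 1.91e-06). For both genes activated replicate 2 was the highest library. Fcgrt, the receptor that recycles antibodies, fell from 90.1 and 66.8 CPM to 7.71 and 11.9 CPM (−3.03 ± 0.46, adjusted p = 1.78e-05). The number that fell was 1 without DKO resting replicate 2 or DKO activated replicate 2. Lysosome and proton pump genes had 4 of 38 members higher and 3 lower, shares of 10.5% and 7.89% near those of all tested genes. Grn, which encodes progranulin, was among those higher (1.85 ± 0.23). The summed macrophage markers given with the complement genes rose alongside both lists, and their part was not tested. Without DKO activated replicate 1, 7 members rose. Of 30 genes of the BCL-2 family and cell death 4 rose and 1 fell, shares of 13.3% and 3.33% against 9.02% and 6.33% of all tested genes. Bid, a death agonist, stood at 30.8 and 54.5 CPM at rest and 305 and 234 CPM after activation (2.59 ± 0.28, adjusted p = 5.95e-08). Bcl2a1b, a survival gene induced by NF-kB with near-identical copies that share reads, stood at 42.7 and 52.0 CPM and then 195 and 97.8 CPM (1.65 ± 0.31, adjusted p = 0.000393), and its call ended without DKO activated replicate 1 (0.0766), where 2 members rose, as many as by DESeq2 or with library totals. The member that fell, Bcl10, was called in neither DESeq2 nor limma-voom.

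Markers of some cell types moved with activation, and their part in the changes above was not tested. Of 21 tested monocyte and macrophage markers 18 rose and 0 fell, with a median of 2.25, and between 14 and 18 rose under all 16 alternatives. Not every listed marker went this way. Adgre1 had 2 and 0 UMIs at rest and 2 and 0 after activation. Ccr2 stood at 30.8 and 37.1 CPM and then 23.1 and 19.1 CPM. Mertk, Cd14, Mrc1 and Cd163 were not among the measured genes. The summed level of the list went from 3346 and 3369 CPM to 13043 and 17025 CPM in DKO, and from 2895 and 2554 CPM to 6741 and 5960.0 CPM in WT. Lyz2, the lysozyme gene of myeloid cells, stood at 929.6 and 1130.1 CPM at rest and 6477 and 7855 CPM after activation (2.79 ± 0.19, adjusted p = 2.94e-12), and made up much of that sum. Lyz1, its neighbour and near copy, stood at 111 and 100.3 CPM and then 653 and 489 CPM (2.45 ± 0.25, adjusted p = 2.39e-08), and reads may be shared between the genes. Of 21 B cell markers 9 fell and 1 rose, and their sum went from 17273 and 19198 CPM to 14329.5 and 12783 CPM. Beside Vpreb3, Fcmr, the receptor for IgM, stood at 1442 and 1819.6 CPM and then 587 and 752 CPM (−1.29 ± 0.20, adjusted p = 1.69e-05), and Ralgps2, a regulator of the GTPase Ral, at 427 and 437 CPM and then 149 and 105 CPM (−1.73 ± 0.22, adjusted p = 1.56e-06). Fcer2a, the low-affinity IgE receptor that CD40 is known to induce on B cells, was the member that rose (1067 and 1204 CPM to 2026 and 1711 CPM, 0.72 ± 0.17, adjusted p = 0.0043). It was not called without DKO resting replicate 1 (0.0719) or DKO activated replicate 1 (0.0505), and without either resting replicate 2 or activated replicate 2 of DKO 2 B cell markers rose.

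The lists of dendritic cell types are given by subset. Of 11 tested general markers 0 were called by edgeR, DESeq2 or limma-voom, with 2 at an unadjusted p under 0.05 in edgeR, and their summed level of 43069 and 48757 CPM at rest and 40844 and 39994 CPM after activation is made up mainly of MHC class II genes and Cd74, which B cells also express. With library totals 3 of them fell. Of 12 markers of the cDC2 subset 3 rose and 1 fell, shares of 25% and 8.33% against 9.02% and 6.33% of all tested genes. Those that rose are also expressed by monocytes and macrophages. The one that fell, Clec12a, which encodes an inhibitory lectin receptor of myeloid cells (−1.55 ± 0.54, adjusted p = 0.0492), lost its call under 12 of 16 alternatives, leaving out any 1 of the 8 libraries among them, at adjusted p from 0.0501 to 0.287. Ms4a6c stood at 11.9 and 22.3 CPM at rest and 105 and 172 CPM after activation (2.88 ± 0.39, adjusted p = 3.44e-06), and Fcer1g, the common chain of Fc receptors, at 87.7 and 99.0 CPM and then 203 and 286 CPM (1.36 ± 0.25, adjusted p = 0.000279). Of 9 cDC1 markers 1 rose and 1 fell, shares of 11.1% each and not far from those of all tested genes. The first was Cd8a (71.1 and 45.8 CPM to 148 and 210.0 CPM, 1.65 ± 0.32, adjusted p = 0.000524), which T cells also express. The second was Cd24a, which B cells also express (−1.04 ± 0.31, adjusted p = 0.0208), and its call ended by DESeq2 (0.0579), without DKO resting replicate 2 (0.556) and without DKO activated replicate 2 (0.246). Xcr1, the defining gene, had 1 and 1 at rest and then 2 and 0 UMIs. Of 12 markers of migratory cells 3 rose and 1, Ccr7, fell, shares of 25% and 8.33%. The median of 0.31 turned to −0.23 without DKO activated replicate 2. Their sum went from 939 and 828 CPM to 1349 and 2007 CPM. Those that rose included Ccl22 and Fscn1, an actin-bundling protein (119 and 91.6 CPM to 206 and 269.6 CPM, 1.19 ± 0.29, adjusted p = 0.00525). The Fscn1 call ended without DKO resting replicate 2 (0.103) or DKO activated replicate 2 (0.0834). Of 10 plasmacytoid markers 4 rose, a share of 40% against 9.02% of all tested genes, and 0 fell. A change above 0 was found in 8 of these markers. Their sum went from 2760.3 and 2658 CPM to 3747 and 4799 CPM. Irf7, Bst2 and Ly6c2 were among those that rose, and interferon also induces them. Ccr9 had 0 and 3 UMIs at rest and 9 and 11 after activation, and Siglech 0 and 10 and then 17 and 12. Pacsin1 had 33 and 40 and then 30 and 5. T cell markers gave 2 higher and 1 lower of 24, shares of 8.33% and 4.17% that are below the 9.02% and 6.33% of all tested genes, and their sum went from 3372 and 2449.6 CPM to 2444 and 2835 CPM. NK and innate lymphoid markers gave 3 higher and 1 lower of 20, shares of 15% and 5% that are not far from those of all tested genes. Gzmb, which encodes granzyme B, stood at 14.2 and 24.8 CPM and then 75.8 and 169 CPM (2.50 ± 0.46, adjusted p = 0.000241). Of 7 plasma cell markers 2 rose and 2 fell, shares of 28.6% each against 9.02% and 6.33% of all tested genes. Jchain, the joining chain of secreted IgM and IgA, had 0 and 2 UMIs at rest and 34 and 32 after activation, a ratio of 33.9 (exact 95% counting interval 9.02 to 286). With all libraries kept, it was not called by DESeq2 (adjusted p = 0.185) or limma-voom (0.169). Its call also ended without either DKO resting replicate or DKO activated replicate 2. Counts in these small lists rested on single libraries. Without DKO resting replicate 2, 3 T cell markers fell, 1 NK marker rose and 0 plasma cell markers rose. Without DKO resting replicate 1 or DKO activated replicate 2, 1 T cell marker rose and 0 fell. Granulocyte, red cell and stromal lists had 1, 0 and 2 tested members.

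**Figure D5:**
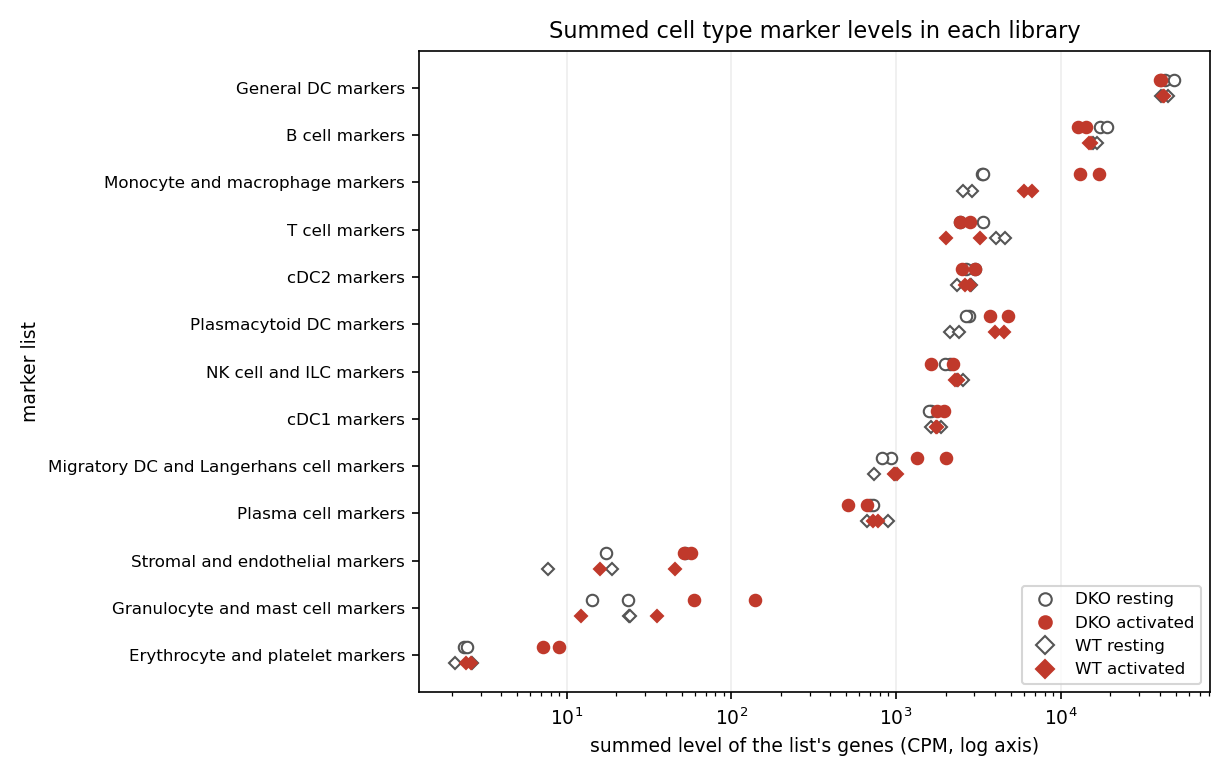
Summed level of each of 13 cell type lists in each library (CPM, log axis), with circles for DKO and diamonds for WT, open for resting and filled for activated. The filled circles of the monocyte and macrophage list lie to the right of all other symbols in its row, and those of the B cell list lie to the left of the open circles.

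The WT libraries gave a second response measured on other libraries. There 1237 of the 8616 tested genes were called, 727 higher and 510 lower. Both contrasts come from 1 fit that shares its estimate of each gene's spread, so their calls are not independent. Without any 1 of the WT libraries the count was between 504 and 748. Of the genes called in both, 460 were higher in both, 59.2% of the DKO and 63.3% of the WT list, and 291 were lower in both, 53.4% and 57.1%, with 0 in opposite directions. Over all tested genes 9.02% were called higher and 6.33% lower in DKO. A further 571 genes were called in DKO but not in WT, of which 546 had the same sign there. The share with the same sign over all tested genes was not computed. The test of the difference itself, the interaction of activation and genotype, called 0 genes by edgeR, with 397 at an unadjusted p under 0.05. DESeq2 and limma-voom also called 0, with 165 and 368 at an unadjusted p under 0.05. The 5 genes with the smallest interaction p are given as values. Cfb changed by 5.39 ± 0.28 in DKO and 3.52 ± 0.24 in WT, a difference of 1.88 ± 0.38 (adjusted p = 0.156). Lyz2 changed by 2.79 ± 0.19 and 1.64 ± 0.18, a difference of 1.16 ± 0.25 (adjusted p = 0.181). Apoe, the apolipoprotein of macrophages, changed by 1.43 ± 0.17 and 0.34 ± 0.17, a difference of 1.09 ± 0.24 (adjusted p = 0.186). Lcp2, an adaptor of immune receptors, changed by 1.02 ± 0.26 and −0.52 ± 0.24, a difference of 1.54 ± 0.35 (adjusted p = 0.186). The call for Lcp2 in DKO ended without DKO resting replicate 2 (0.0716) or DKO activated replicate 2 (0.0623). Ccl4, a chemokine gene, changed by 2.04 ± 0.85 and −2.72 ± 0.52, a difference of 4.76 ± 0.99 (adjusted p = 0.156). Its DKO values were 7.11 and 1.24 CPM at rest and 21.8 and 2.39 CPM after activation, so that the groups overlapped and activated replicate 1 alone was high. Without DKO activated replicate 1 its DKO change was −0.45. In simulated data of this size the fit called 94% of 100 genes changed by 2 on the log2 scale and 48% of 100 changed by 1. The changed genes were drawn from better-measured genes alone, so these rates do not hold for genes near the floor. They describe the activation contrast and not the interaction.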

How the data were processed

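Bulk RNA was measured by MARS-seq, a 3′ tag method that marks each captured molecule with a UMI, in 8 libraries of 4 groups of 2. The UMI counts per gene were deposited by the authors in 1 table and used as deposited. Build mm10 and the tools cutadapt 1.8.3, bcl2fastq 2.17.1.14, HTSeq, TopHat2 and DESeq2 are named in the submitters' processing notes. No source used here gives how strand or the collapsing of UMIs was handled. The log2 fold change and adjusted p-value of the authors' deposited table served only for a count of shared calls. A further 16 per-sample columns of the table were not used.

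Counts were scaled by TMM, filtered by filterByExpr on the 4 groups and modelled with edgeR 4.0.16 under R 4.3.3. The model held 1 coefficient per group and all 8 libraries, with 4 degrees of freedom left for the residuals. Groups were compared with the quasi-likelihood F test and Benjamini-Hochberg adjustment over the 8616 genes that passed, and the SE is the absolute log2 change divided by the square root of F. DESeq2 1.42.0, limma 3.58.1 with voom quality weights, other scalings and filters, and leaving out libraries were alternatives. The labels do not say that replicates came from separate mice, so the spread behind the p-values is that between libraries and may be technical. The replicates of each DKO group differed by more than sampling noise, with a chi-square per degree of freedom of 2.77 at rest and 2.86 after activation and Spearman correlations of 0.921 and 0.918 across genes, which are not independent replicates.

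The 29 function lists, the 13 cell type lists and the members were chosen with earlier results of these data known. The genes named are Icam1, Icam2 and Cd40, the 8 largest called changes in each direction at a mean of at least 5 log2 CPM with no overlap, up to 3 called genes in each direction with at most 3 UMIs in each library of the other group, up to 3 called genes in each direction by p from each list, or its most abundant tested member, and the 5 smallest interaction p-values. Genes outside that rule are said to be so, and some items are not reported here. The fit was tested on simulated data, where 5 of 8416 unchanged genes were called.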

Additional observations from a re-analysis of the deposited data

How the results depend on the processing

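Of 16 alternatives to the fit, DESeq2 called 857 genes in the DKO contrast, 515 higher and 342 lower, and library totals in place of TMM called 864 lower. With the shallower library of each DKO group left out the counts were 553 in all, 311 higher, 242 lower and 488 at least 2-fold. Leaving out 1 library at a time gave 695 to 1192 calls, 396 to 696 higher, 299 to 496 lower and 583 to 916 at least 2-fold. In WT DESeq2 called 766 genes, limma-voom 1871, and leaving out 1 library 504 to 1388. The interaction gave 0 to 2 calls when 1 library was left out, namely Jchain, Rpl35, or Ccl4 with Gzma, and 2, Ccl4 and Gzma, without the shallower DKO libraries. With fewer libraries the fit has fewer residual degrees of freedom, and the cause of the other shifts was not tested.

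Over the named genes 2287 values kept their direction and their side of the threshold, 202 lost the call, 3 gained one and 4 reversed. The reversed values were Ccl4 without DKO activated replicate 1 (−0.45; −0.45 to 3.36 when 1 library was left out) and Sparc, which was not called (main value −0.60), under limma-voom (0.24), without DKO resting replicate 1 (1.07; −1.59 to 1.07 when 1 library was left out) and without both shallower DKO libraries (1.02). Of the counts and medians of the lists 1722 stayed close to the main value and 246 moved. Depth limits genes near the floor of 3 UMIs, where folds are known at best within the counting intervals given. No paired analysis was possible because the titles carry no numbers that pair libraries across groups and the replicate numbers only name them.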
